A study of Mus musculus with 25 samples.

Results

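The genes described here carry antigen presentation on MHC class II: H2-Aa, H2-Ab1, H2-Eb1, H2-DMa, H2-DMb1, Cd74 and Ciita. They are 7 of the 22439 genes counted, were taken by symbol from the raw count matrices of single myeloid cells of the injured mouse spinal cord, whatever their values there. Levels were compared across 4 cell types, 16 clusters and 6 time points.

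The series holds 25 droplet libraries with 30958 cells, each made from 5 mm of cord pooled from 1 to 3 mice, cleared of myelin and sorted by flow cytometry. Controls had a laminectomy without a cord injury, and injured cords were taken on day 1, 2, 3, 10 or 21. There were 2 control libraries, 5 from day 1, 4 from day 2, 7 from day 3, 5 from day 10 and 2 from day 21. Libraries of Cx3cr1CreERT2 mice were sorted for YFP alone and are called mixed (12 libraries). Libraries of Cx3cr1CreERT2:R26tdTomato mice were sorted as RFP+/YFP+ and called resident (5 libraries) or as RFP-/YFP+ and called infiltrating (7 libraries). Every mouse therefore carried the Cx3cr1CreERT2 allele, controls included, and only cells that express the Cx3cr1-driven YFP could enter a library. One mixed control library came from females and 1 resident control library from males.

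A library labelled infiltrating in its title but RFP+/YFP+ in its sort label (day 3) stood in neither group, was left out of the tests, and was 0.2105% microglia. The sorts were not pure for cell type: microglia made up 3.05% of the cells of the second mixed library of day 2 and 14.4% of the third mixed library of day 3, against 87.3% to 99.6% of the other 9 mixed libraries of injured cords, and macrophages made up 7.45% to 25.2% of the 4 resident libraries of injured cords. Libraries held 155 to 3800 cells and 486649 to 33204422 unique molecular identifiers (UMIs, each counting 1 captured transcript). The letters of a cell barcode recurred in another library for 254 cells (0.8205%).

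The deposited cell type codes carry no names, so types were named from marker lists. Microglia (13289 cells, median 3062 UMIs per cell) passed for 9 of 9 microglial markers and macrophages (12841 cells, median 9144 UMIs) for 6 of 9 macrophage and 5 of 8 monocyte markers. The type called dendritic-like (2712 cells, median 11361 UMIs) passed for Flt3, Zbtb46, Itgax, Cd209a and Ccr7, which are 5 of 8 dendritic markers, and also for 4 of 6 markers of plasmacytoid dendritic cells. The type called neutrophil-like (2116 cells, median 2154 UMIs) passed for 7 of 7 neutrophil markers. All cells of the control libraries were microglia.

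MHC class II molecules display peptides from material taken up by a cell to CD4+ T cells. H2-Aa and H2-Ab1 encode the alpha and beta chains of the I-A molecule and H2-Eb1 the beta chain of I-E. Cd74 encodes the invariant chain, which escorts new class II molecules to the endosome and fills their groove on the way. H2-DMa and H2-DMb1 encode the chains of H2-DM, which exchanges the remnant of the invariant chain for a peptide. Ciita encodes the coactivator that switches on class II promoters together with RFX, CREB and NF-Y proteins bound to the DNA. Dendritic cells carry class II constitutively, while microglia of the healthy cord carry little of it and macrophages can acquire it after interferon-gamma.

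In the GRCm38 build, 5 of the 7 genes lie together on chromosome 17, in the major histocompatibility locus: H2-DMa at chr17:34119541-34139101, H2-DMb1 at chr17:34153072-34160230 and H2-Ab1 at chr17:34257689-34269419, all on the plus strand, H2-Aa at chr17:34282744-34287823 on the minus strand and H2-Eb1 at chr17:34305867-34316674 on the plus strand. Ciita lies at chr16:10480059-10528418 on the plus strand, and Cd74 on a further chromosome. H2-DMb1 has a near-identical neighbour, H2-DMb2, so the split of reads between them is uncertain. In microglia H2-DMb2 was lower than control on day 1 (-1.35, adjusted p = 0.0235; edgeR with Benjamini-Hochberg adjustment), while the value of H2-DMb1 was -0.16 (adjusted p = 0.717).

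The promoters of the I-A alpha chain and of the I-E beta chain are shown because these genes moved together in the sums below and are classical targets of Ciita. Each run is the RefSeq promoter from 110 to 31 bases before the transcription start (GRCm38.p6), read 5′ to 3′ in the direction of the gene, H2-Aa from chr17:34287854-34287933 on the minus strand and H2-Eb1 from chr17:34305757-34305836 on the plus strand. Capitals mark TNGNAACT, letters taken from the X box region of these promoters after they were seen, and TGATTGG, which is the reverse complement of CCAATCA and holds the inverted CCAAT of the Y box that NF-Y binds.
H2-Aa: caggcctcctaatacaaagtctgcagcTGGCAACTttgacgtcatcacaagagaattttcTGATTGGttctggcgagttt
H2-Eb1: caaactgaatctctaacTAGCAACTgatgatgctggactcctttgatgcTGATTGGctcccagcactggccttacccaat
The first motif began 83 bases before the start of H2-Aa and the second 50 bases before it, a distance of 33 bases. In H2-Eb1 they began 93 and 61 bases before the start, a distance of 32 bases. The promoter table held 4 of the 7 genes, and H2-DMb1 also had both motifs, 96 and 63 bases before its start, while the 2 promoters of H2-DMa did not hold the pair. Searched on both strands of 32851 promoters of 300 bases, TNGNAACT occurred in 12.3% and TGATTGG in 7.82%, and 0.0457% (15 promoters) held the first and then the second within 50 bases on 1 strand. The motifs do not overlap each other, and a match describes letters only.

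Dendritic-like cells carried the highest level of each of the 7 genes. Levels are given as CPM, the UMIs of a gene per 1000000 UMIs summed over the cells of 1 type in 1 library, for sums of at least 20 cells. Because clusters and types were made from the same cells and genes, levels between types are a description and were not tested. H2-Aa, the I-A alpha chain, ranged from 4796 to 14333 CPM (median 7843) over 10 dendritic-like sums. In 20 macrophage sums it ranged from 51.1 to 1514 CPM (median 417), in 5 neutrophil-like sums from 20.8 to 145 CPM (median 30.9) and in 19 microglial sums from 0 to 1114 CPM (median 6.34). The dendritic-like sums lay above all others, and the 3 lower types overlapped their neighbours in this order.

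H2-Ab1, the I-A beta chain, and H2-Eb1, the I-E beta chain, followed the same order at the top. H2-Ab1 ranged from 4710 to 10160 CPM (median 6265) in dendritic-like cells and from 59.7 to 1306 CPM (median 381) in macrophages. H2-Eb1 ranged from 3626 to 11500 CPM (median 5768) in dendritic-like cells and from 19.5 to 1060 CPM (median 281) in macrophages. Cd74, the invariant chain, ranged from 16679 to 45383 CPM (median 26375) in dendritic-like cells, from 447 to 4842 CPM (median 1577) in macrophages, from 9.02 to 5626 CPM (median 107) in microglia and from 13.1 to 154 CPM (median 64.6) in neutrophil-like cells. For none of these 3 genes did the ranges of dendritic-like cells and macrophages overlap.

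The H2-DM chains were ordered otherwise. H2-DMa ranged from 545 to 1020 CPM (median 669) in dendritic-like cells, from 116 to 507 CPM (median 228) in microglia, from 43.8 to 240 CPM (median 98.1) in macrophages and from 0 to 18.8 CPM (median 11.4) in neutrophil-like cells. H2-DMb1 ranged from 980 to 1630 CPM (median 1246), from 66.6 to 289 CPM (median 136), from 19.5 to 187 CPM (median 95.6) and from 1.46 to 22.9 CPM (median 10.5) in the same order of types. For both chains microglia came second, above macrophages, with overlapping ranges. Ciita, the coactivator, ranged from 53.1 to 188 CPM (median 107) in dendritic-like cells and from 0 to 18.2 CPM (median 2.96) in macrophages, and was at 0 counts in most microglial sums.

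**Figure D1:**
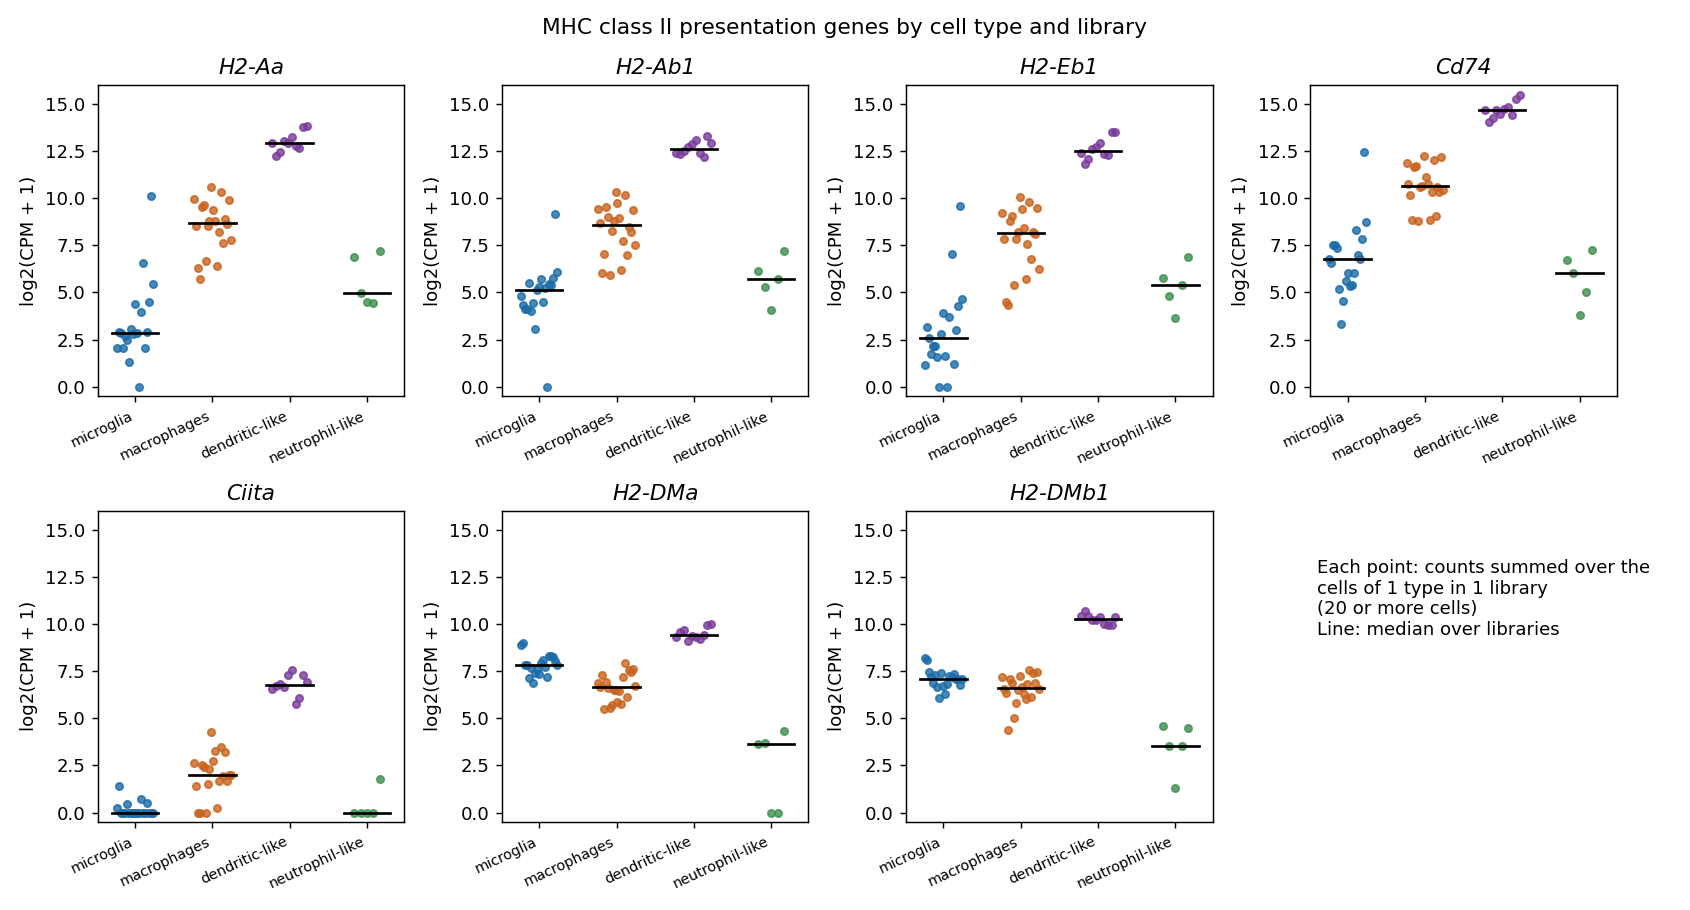
Level of each of the 7 genes as log2(CPM + 1) (vertical axis) by cell type (horizontal axis), 1 point per sum of at least 20 cells of 1 library, with a line at the median. Dendritic-like cells are highest in each panel, and for H2-DMa and H2-DMb1 the median of microglia (228 and 136 CPM) lies above that of macrophages (98.1 and 95.6 CPM).

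Within single libraries, where both types share mice, sort and sequencing, the same orders held. Dendritic-like cells were above macrophages in 10 of 10 libraries for all 7 genes, with median ratios of 13.97 for H2-Aa, 9.693 for Cd74, 6.943 for H2-DMa and 34.67 for Ciita. Macrophages were above microglia in 13 of 14 libraries for H2-Aa (median ratio 20.12), in 13 for H2-Eb1 (14.79), in 13 for Cd74 (10.11) and in 14 for H2-Ab1 (3.823). For the peptide exchange factor the order was inverted: macrophages were above microglia in 1 of 14 libraries for H2-DMa (median ratio 0.4731) and in 3 of 14 for H2-DMb1 (0.7039). In sums of these cells the share of cells that carry a transcript and the amount per cell cannot be told apart, so shares of cells were set beside the levels.

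Shares were taken after thinning every cell to 1000 UMIs, which left out 30 microglia, 57 macrophages, 15 dendritic-like and 28 neutrophil-like cells. At least 1 UMI of any of the 3 chains H2-Aa, H2-Ab1 and H2-Eb1 was found in 85.52% of dendritic-like cells (66.4% to 92.0% over 10 libraries), 14.63% of macrophages, 19.26% of neutrophil-like cells and 4.588% of microglia. At the deposited depth the shares were 89.12%, 27.03%, 33.65% and 12.57%. Neutrophils do not make class II in quantity, so their share was set beside those of the other types, and it varied between 5 libraries from 4.73% to 32.8%. Of these 5, only the second mixed library of day 2, with 23 microglia, is among the libraries of microglia tested below. Libraries of controls, day 10 and day 21 held no neutrophil-like cells, so the share gives no level for their microglia. The highest value was that of the day 3 library with conflicting labels (897 cells), and the other 4 libraries lay between 4.73% and 18.98%. Within these libraries the share of macrophages was above that of neutrophil-like cells in the 4 with matching labels (20.93% against 18.98%, 15.58% against 8.751%, 23.07% against 4.727% and 13.62% against 10.74%) and below it in the library with conflicting labels (15.62% against 32.84%). Microglia of the libraries tested below had shares of 1.808% to 7.992%, so that their upper end lay above the lowest neutrophil-like library and their lower end below it. Pooled without the library with conflicting labels, a chain UMI was found in 9.388% of neutrophil-like cells, 14.41% of macrophages and 4.571% of microglia. The pooled microglial share lay under the neutrophil-like share with and without that library. The neutrophil-like share comes from libraries that also held dendritic-like cells, and the part of free RNA in either share was not tested. The 2 control libraries, which held microglia only, had 2.888% and 3.21%.

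Cd74 and H2-DM were set beside the same type. A UMI of Cd74 was found in 90.17% of dendritic-like cells, 20.43% of macrophages and 9.7% of microglia, against 9.147% of neutrophil-like cells. A UMI of H2-DMa was found in 45.75% of dendritic-like cells, 20.9% of microglia and 8.072% of macrophages, against 1.309% of neutrophil-like cells. A UMI of H2-DMb1 was found in 62.16% of dendritic-like cells, 13.68% of microglia and 7.363% of macrophages, against 1.538%. For Cd74 the neutrophil-like share was 14.06% in the library with conflicting labels and 1.512% to 7.691% in the other 4. Pooled without it, the neutrophil-like shares were 5.578% for Cd74, 0.9271% for H2-DMa and 1.151% for H2-DMb1, so that the microglial shares of H2-DM lay far above them either way and that of Cd74 stood near the neutrophil-like share only with that library. Ciita was found in 14.38% of dendritic-like cells, 0.4408% of macrophages, 0.1198% of neutrophil-like cells and 0.01898% of microglia.

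**Figure D2:**
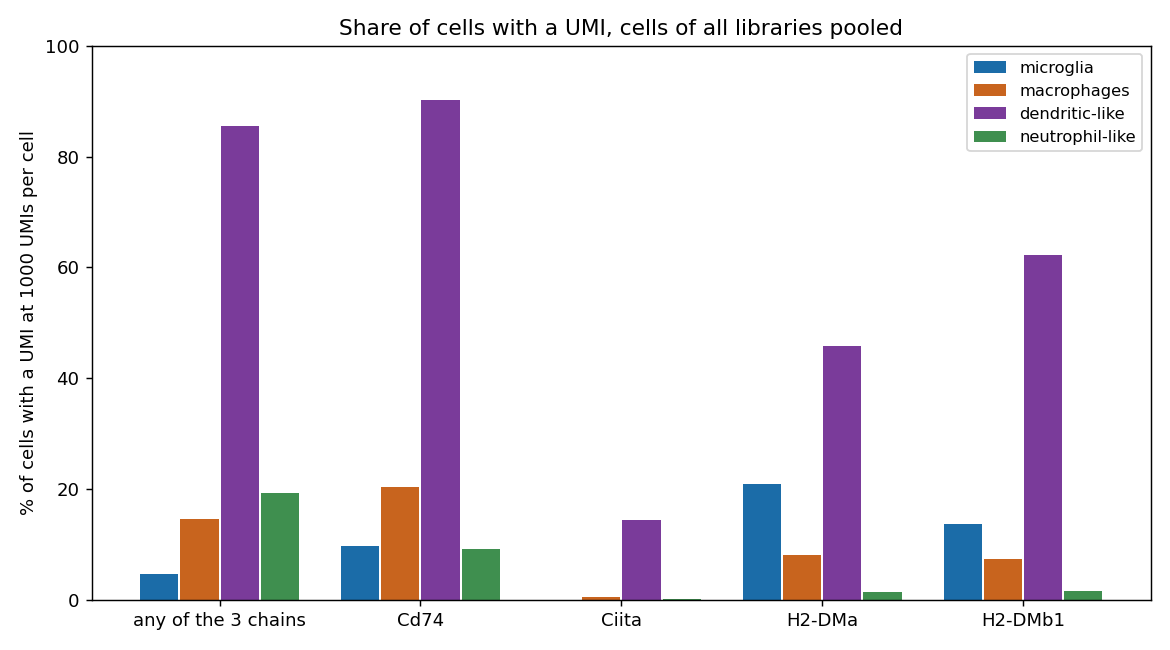
Percentage of cells with at least 1 UMI (vertical axis, from 0) for the 3 chains together, Cd74, H2-DMa, H2-DMb1 and Ciita (groups on the horizontal axis) in the 4 cell types (bars), each cell thinned to 1000 UMIs and cells of all libraries pooled. For H2-DMa microglia reach 20.9% against 1.309% of neutrophil-like cells, while for the 3 chains they stay at 4.588% against 19.26% (9.388% without the library with conflicting labels).

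How the UMIs of a gene were spread over cells is given as the share held by the 1% of cells with the most, which is also higher where counts are sparse. In the 17 resident and mixed libraries, the 1% of microglia with the most chain UMIs (132 cells) held 33.28% of the 2602 chain UMIs, and 32.35% of Cd74 sat in the top 1% for Cd74. Within single libraries of at least 200 microglia the top 1% held 14.76% to 46.88% of the chain UMIs. The top 1% held 8.428% for H2-DMa and 9.574% for H2-DMb1. Over all libraries the value for the chains was 56.48%, and 123 cells coded as microglia in infiltrating libraries held 35.64% of the 4122 chain UMIs of that type. In macrophages the top 1% held 34.45% of the chain UMIs and 14.19% of H2-DMa, and in dendritic-like cells 3.558% and 3.447%. The count ratio of Cd74 to H2-Aa had a median of 3.26 in dendritic-like sums (2.76 to 4.11), 4.13 in macrophages (2.65 to 15.28), 12.35 in microglia (3.24 to 57.09, 12 sums with at least 10 counts of H2-Aa) and 0.97 in neutrophil-like cells (0.6 to 2.09). The ratio was thus not the same in all types.

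Across the 16 clusters of the deposited table, H2-Aa was highest in cluster 15 (8651 CPM), with 25676 CPM of Cd74 and 662 CPM of H2-DMa. With cells pooled over libraries, cluster 10 (182 cells, 1329 CPM of H2-Aa) and cluster 8 (1076 CPM) followed, but the single library with at least 20 cells of cluster 10 had 103.1 CPM, below the median library of clusters 8 (795.9 CPM), 12 (514.2 CPM), 13 (507.7 CPM) and 11 (349.7 CPM). Cluster 1, which held the control microglia (1887 cells), had 4.03 CPM of H2-Aa, the lowest with cells pooled over libraries, but 485 CPM of H2-DMa and 103 CPM of Cd74. By the median library, clusters 6 (4.464 CPM) and 7 (1.541 CPM, 1 library) lay below its 4.844 CPM of H2-Aa. Cluster 11, of macrophages, had the opposite pair of values, 653.7 CPM of H2-Aa and 57.2 CPM of H2-DMa. Other clusters were not uniform either: between libraries H2-Aa ranged from 0 to 2036 CPM in cluster 2, from 0 to 1878 CPM in cluster 3 and from 12.2 to 2711 CPM in cluster 9. Clusters 2 and 3 also span the codes of microglia and of macrophages.

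**Figure D3:**
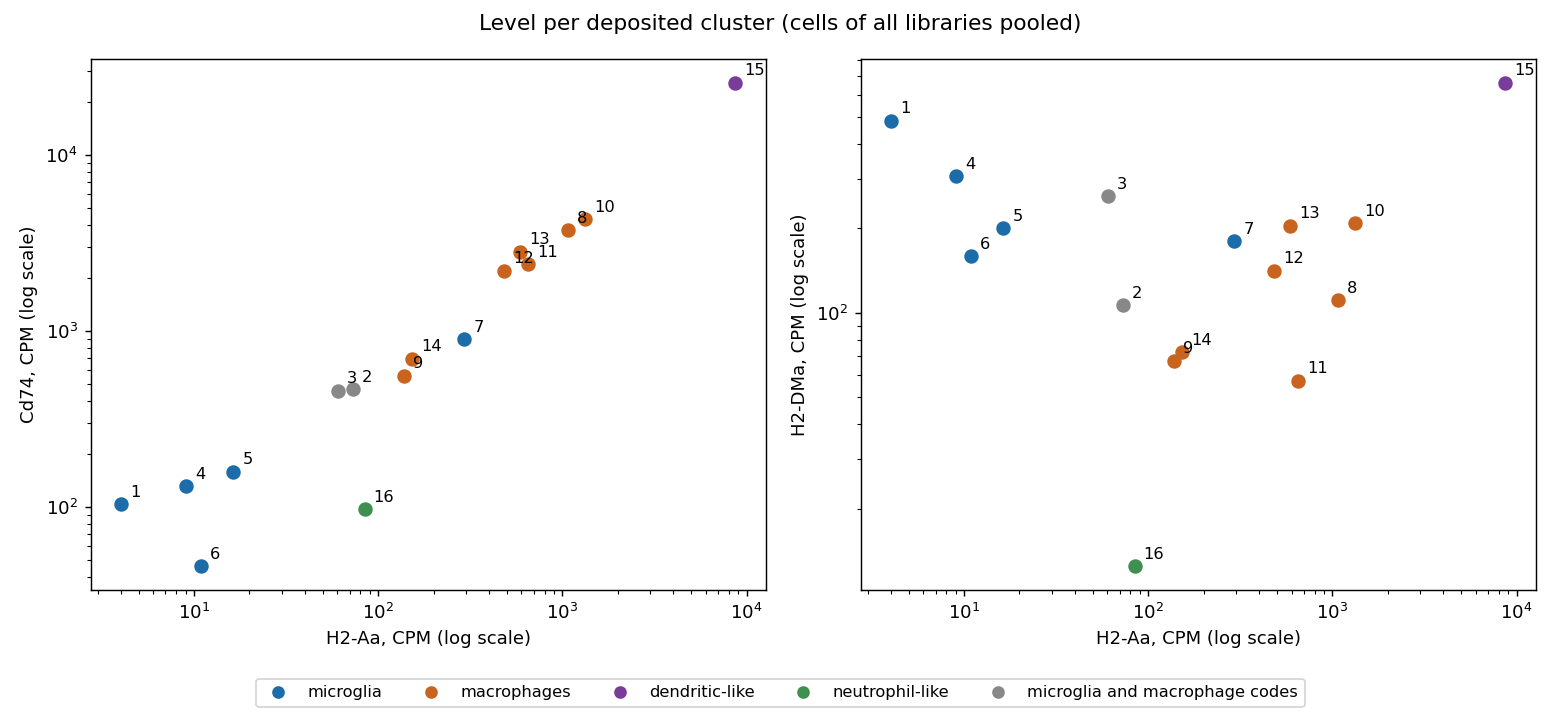
H2-Aa (horizontal axis, CPM, log scale) against Cd74 (left panel) and H2-DMa (right panel) (vertical axes, CPM, log scale) in 16 clusters, cells of all libraries pooled and points coloured by cell type, grey for clusters 2 and 3 that span 2 types. Cluster 15 is highest on each axis, and cluster 1 pairs 4.03 CPM of H2-Aa with 485 CPM of H2-DMa.

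Over 54 sums of the 4 types, the genes whose log2(CPM + 1) was most like the mean of the 7 genes, among 9061 genes, were Klrk1 (Pearson r = 0.926), Ryr1 (0.91), Dpp4 (0.909), Flt3 (0.895), Cd209a (0.891), Clec10a (0.89), Kmo (0.886) and Olfm1 (0.883). Their medians were low in microglia and highest in dendritic-like cells, for example 0 and 122.9 CPM for the C-type lectin gene Cd209a. The sums share libraries and depth, so these values are a description. Within types, H2-Aa followed H2-Eb1 closely (r = 0.943 over 19 microglial sums, 0.984 over 20 macrophage sums and 0.989 over 10 dendritic-like sums) and Cd74 less so (0.801, 0.921 and 0.948). In microglia H2-Ab1, the partner chain of H2-Aa, had r = 0.305 with H2-Aa and 0.259 with H2-Eb1. H2-DMa and H2-DMb1 went with the mean of the other 6 genes at r = 0.153 and 0.0918 in microglia.

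In microglia, Cd74 was higher than control on day 1, lower on day 2 and higher in the day 21 library, while the CPM of the H2-DM chains lay below that of controls in each library after injury. The I-A and I-E chains were highest in the day 21 library. Tests used the summed counts of 17 resident and mixed libraries (23 to 1500 microglia and 135097 to 7794902 UMIs each), with edgeR's quasi-likelihood test, TMM scaling, a term for sex and Benjamini-Hochberg adjustment over 10801 genes. The libraries are the replicates, so p-values cover the spread between libraries. Day 21 had 1 such library, which was assumed to vary like the other groups. Ciita did not pass the filter on low counts: 4 counts in controls, 0 on day 1, 3 on day 2, 1 on day 3, 2 on day 10 and 0 on day 21.

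Fold changes and CPM differ in scale here. The TMM factors of the control libraries were 1.384 and 1.461 against 0.771 to 1.279 after injury, so a fold change from the fit lies above the ratio of the CPM values. Scaling by library size alone moved the median change of all genes to -0.73 on day 1, -0.40 on day 2, -0.62 on day 3, -0.60 on day 10 and -0.94 on day 21 against control (log2), and changes below are relative to a median near 0. The split of calls on day 1 was 2577 higher and 2457 lower with TMM, against 1282 and 4383 with library size alone. On day 2 it was 1896 and 1314 against 1265 and 2617, on day 3 2168 and 1896 against 1176 and 3956, on day 10 871 and 240 against 494 and 2161, and on day 21 661 and 93 against 317 and 1845. For day 3 against day 1 it was 931 and 1099 against 1181 and 761.

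Cd74, the invariant chain, stood at 107 and 92.2 CPM in the control libraries, at 183, 179 and 160 CPM on day 1, at 34.9, 9.02 and 22.2 CPM on day 2, at 47.6, 64.0, 39.2, 40.5 and 64.1 CPM on day 3, at 127, 109 and 229 CPM on day 10 and at 423 CPM on day 21. At no time did the injured libraries overlap the controls: those of day 1, day 10 and day 21 lay above them and those of day 2 and day 3 below. This is read from CPM against 2 controls. The share of all genes with no such overlap is not given, so non-overlap describes the libraries only, here and for the genes below. By edgeR's quasi-likelihood test with Benjamini-Hochberg adjustment, Cd74 rose on day 1 by 1.24 (log2, SE 0.42, adjusted p = 0.0224), from 99.5 ± 10.3 CPM (SD, n = 2) to 174 ± 12.2 CPM (n = 3). It fell on day 2 by 1.90 (SE 0.41, adjusted p = 0.00308), to 22.04 ± 12.9 CPM (n = 3). The 8 dendritic markers summed to 80.0 to 82.5 CPM in the same sums of controls, 28.3 to 58.0 CPM on day 1, 20.6 to 29.5 CPM on day 2, 7.94 to 22.6 CPM on day 3 and 53.7 to 84.8 CPM on day 10, with 2 to 7 of the 8 at 0, and their part in the level of Cd74 was not tested. Batf3, of this list, also passed as a marker in microglia. The 9 macrophage markers summed to 1059 to 1238 CPM in controls, 1530 to 2410 CPM on day 1, 1499 to 2028 CPM on day 2 and 3052 to 4607 CPM on day 3. The 8 monocyte markers summed to 8.93 to 22.1 CPM in controls, 195 to 475 CPM on day 1, 360 to 548 CPM on day 2 and 155 to 659 CPM on day 3. The part of either list in the level of Cd74 was not tested. The change of Cd74 on day 3, -0.54 (adjusted p = 0.255), and that on day 10, 1.09 (SE 0.39, adjusted p = 0.0875), did not pass, and with library-size scaling that on day 3 did (-1.12, adjusted p = 0.0169).

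Between injury times the invariant chain moved further. Cd74 fell from day 1 to day 3 by 1.78 (SE 0.31, adjusted p = 0.000939) and rose from day 3 to day 10 by 1.63 (SE 0.31, adjusted p = 0.00613; edgeR), with no overlap between the libraries of these days. It was the 1 gene of 6 tested that passed in each of these comparisons, where 18.8% and 6.88% of all genes passed. In the 1 library of day 21 Cd74 was higher than control by 3.14 (SE 0.49, adjusted p = 0.000512; edgeR), where the error holds no spread of day 21 and is that of the other times. The rise on day 1 was lost without the resident control library (0.76, adjusted p = 0.312), in mixed libraries alone (0.41, adjusted p = 0.852) and with library-size scaling (0.53, adjusted p = 0.287). The rise to day 10 was lost without the second mixed library of day 10 (1.26, adjusted p = 0.118) and took the other sign with the sequencing pool as a term (-0.50, adjusted p = 0.998), and the fall on day 2 was lost with that term (-1.004, adjusted p = 0.117), without the mixed control library (-1.43, adjusted p = 0.0762) or the first mixed library of day 2 (-1.35, adjusted p = 0.0516).

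H2-DMa, the alpha chain of the peptide exchange factor, stood at 478 and 507 CPM in controls, at 228, 228 and 140 CPM on day 1, at 201, 116 and 170 CPM on day 2, at 197, 159, 241, 273 and 209 CPM on day 3, at 319, 309 and 300 CPM on day 10 and at 221 CPM on day 21. Each injured library was below both controls in CPM, where with library-size scaling the median change of all genes was also negative at each time. H2-DMa fell on day 2 by 1.29 (log2, SE 0.27, adjusted p = 0.00249) and on day 3 by 0.68 (SE 0.25, adjusted p = 0.0382; edgeR with Benjamini-Hochberg adjustment). On day 1 its change was -0.69 (SE 0.28, adjusted p = 0.0509; 0.000626 to 0.382 over 10 alternatives), on day 10 it was -0.12 (adjusted p = 0.825) and on day 21 -0.19 (adjusted p = 0.807). The call of day 3 was lost when any of 10 of the 17 libraries was left out, with changes of -0.77 to -0.59 in those fits, and the call of day 2 was kept in 17 of 17. With the sequencing pool as a term neither call was kept, and the change of day 3 was smaller than in any of those fits, as given below.

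H2-DMb1, the beta chain, stood at 281 ± 11.8 CPM (SD, n = 2) in controls, 143 ± 29.8 CPM (n = 3) on day 1, 108 ± 46.0 CPM (n = 3) on day 2, 123 ± 36.8 CPM (n = 5) on day 3, 143 ± 15.9 CPM (n = 3) on day 10 and 136 CPM on day 21. All injured libraries lay below both controls in CPM, with the same limit as for H2-DMa. In the fit of 17 libraries no change passed the edgeR test, which gave -0.86 on day 2 (adjusted p = 0.0511) and -0.16 on day 1 (adjusted p = 0.717). The change of day 2 passed with median-of-ratios scaling (-0.96, adjusted p = 0.0278), without a filter (-0.92, adjusted p = 0.0371), with DESeq2 (-0.94, adjusted p = 0.0128), with a sort term (-0.88, adjusted p = 0.0425), without the sex term (-0.90, adjusted p = 0.0352) and in 7 of 17 fits without 1 library. With library-size scaling it was called lower on day 1 (-0.88, adjusted p = 0.0314), day 2 (-1.24, adjusted p = 0.00836), day 3 (-1.14, adjusted p = 0.00398) and day 10 (-0.95, adjusted p = 0.0373).

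The shares of cells lay on the same side of controls as the CPM. With each cell thinned to 1000 UMIs, a UMI of H2-DMa was found in 37.26% to 37.79% of microglia in the control libraries, 10.94% to 18.31% on day 1, 10.43% to 16.95% on day 2, 13.75% to 22.82% on day 3 and 23.05% to 25.88% on day 10. A UMI of Cd74 was found in 7.449% to 7.583% of control microglia, 11.89% to 12.41% on day 1, 1.036% to 6.075% on day 2, 3.622% to 6.005% on day 3 and 10.15% to 14.1% on day 10. In the day 21 library the shares were 18.86% for H2-DMa (exact binomial 95% interval 16.51% to 21.36%) and 20.7% for Cd74 (18.25% to 23.26%), and such intervals cover counting error only. For both genes the control libraries lay outside the range of each later time. The Cd74 shares of days 1, 10 and 21 were above the pooled share of neutrophil-like cells with the library with conflicting labels (9.147%) and without it (5.578%). Those of controls lay below the first and above the second, and those of days 2 and 3 lay below the first and on both sides of the second. Libraries of controls, day 10 and day 21 held no neutrophil-like cells, so these pooled shares give no level for their microglia.

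**Figure D4:**
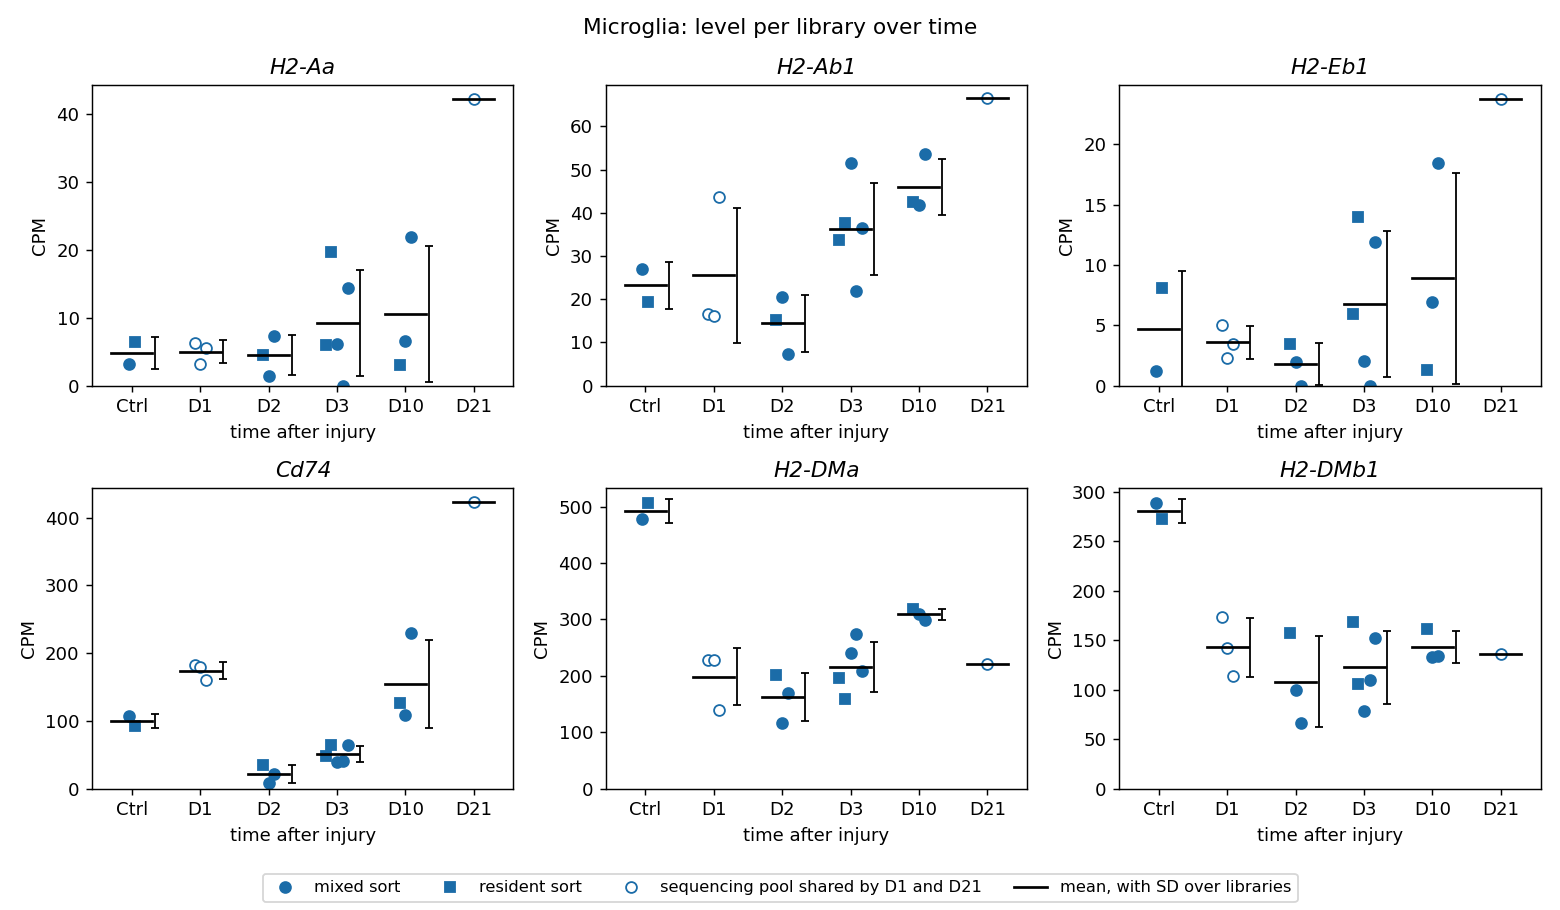
CPM in microglia (vertical axis of each panel) by time (horizontal axis) for 6 genes, 1 point per library, open circles for libraries of the sequencing pool that holds days 1 and 21, bars for mean and SD, with 1 library and no SD on day 21. H2-DMa falls from 478 and 507 CPM in controls to 116 to 201 CPM on day 2, while Cd74 runs from 107 and 92.2 CPM through 9.02 to 34.9 CPM on day 2 to 423 CPM on day 21.

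H2-Ab1, the I-A beta chain, stood at 27.0 and 19.4 CPM in controls, at 16.6, 16.2 and 43.6 CPM on day 1, at 15.3, 20.6 and 7.40 CPM on day 2, at 33.8, 37.6, 51.5, 21.9 and 36.5 CPM on day 3, at 42.6, 41.9 and 53.5 CPM on day 10 and at 66.6 CPM on day 21. Libraries of days 1, 2 and 3 overlapped the controls, and those of days 10 and 21 lay above them. H2-Ab1 rose on day 3 by 1.27 (log2, SE 0.44, adjusted p = 0.0312), on day 10 by 1.59 (SE 0.44, adjusted p = 0.0274) and on day 21 by 2.30 (SE 0.55, adjusted p = 0.0128; edgeR with Benjamini-Hochberg adjustment). The call of day 3 was lost without either control library or without the second resident library of day 3 (1.05 to 1.498, adjusted p 0.0504 to 0.228). That of day 10 was lost without either control or any of the 3 day 10 libraries (1.37 to 1.84), and that of day 21 without either control (2.62, adjusted p = 0.122, and 2.18, adjusted p = 0.0641). In mixed libraries alone it passed at none of these times (adjusted p = 0.395, 0.483 and 0.116). With library-size scaling it passed at none of these times (adjusted p = 0.18, 0.0801 and 0.0581).

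Against control, H2-Aa and H2-Eb1 passed on day 21 alone in this fit. Without the sex term H2-Aa also passed on day 3 (1.95, adjusted p = 0.047; edgeR), and without the second mixed library of day 3 both passed from day 1 to day 3 (1.51, adjusted p = 0.0293, and 1.60, adjusted p = 0.0456). H2-Aa stood at 3.22 and 6.47 CPM in controls, from 0 to 21.95 CPM in the libraries of days 1 to 10 and at 42.2 CPM on day 21. H2-Eb1 stood at 1.25 and 8.09 CPM in controls, from 0 to 18.4 CPM on days 1 to 10 and at 23.7 CPM on day 21. The day 21 library thus lay above each other library of the fit for both genes. Its change from control was 4.79 for H2-Aa (SE 0.81, adjusted p = 0.00105) and 4.67 for H2-Eb1 (SE 0.92, adjusted p = 0.00327; edgeR), and the call for H2-Eb1 was lost without the mixed control library (4.15, adjusted p = 0.149).

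In that library a chain UMI was found in 7.992% of microglia thinned to 1000 UMIs (exact binomial 95% interval 6.407% to 9.797%), against 2.888% to 3.21% in controls and, in neutrophil-like cells, 19.26% over all libraries and 9.388% without that with conflicting labels. There 11 of 1041 microglia held 42.53% of the 609 chain UMIs, while in the mixed control library 15 of 1429 held 25%. The top 1% held 46.88% of 128 chain UMIs in the first mixed library of day 1 and 41.04% of 402 in the second mixed library of day 10. The lowest library had 14.76%. The summed level of the 9 macrophage markers was 6886 CPM there with 1 of the 9 at 0, against 1059 to 1238 CPM in controls with 1 to 3 at 0 and 3971 to 4936 CPM on day 10. The 8 monocyte markers summed to 246.4 CPM with 5 at 0, against 8.93 to 22.1 CPM in controls with 0 to 3 at 0, 195 to 475 CPM on day 1, 360.4 to 547.8 CPM on day 2, 154.6 to 659.1 CPM on day 3 and 226.2 to 282.5 CPM on day 10. The 8 dendritic markers summed to 102.5 CPM with 3 at 0, against 80.0 to 82.5 CPM in controls with 2 or 3 at 0. The 6 markers of plasmacytoid dendritic cells summed to 144.8 CPM with 2 at 0, against 15.6 to 19.7 CPM in controls with 1 or 2 at 0 and 80.1 to 129.9 CPM on day 10, and the part of such cells in the result was not tested. Cox6a2 of this list and Batf3 of the dendritic list also passed as markers in microglia, so these sums are not particular to dendritic cells. Without cluster 2, whose cells span microglia and macrophages, the changes were 4.72 for H2-Aa (adjusted p = 0.002) and 3.13 for Cd74 (adjusted p = 0.000843). The day 21 library was sequenced in the same pool as the day 1 libraries and with no control, so for days 1 and 21 the effect of time and that of the pool cannot be told apart.

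Where pools held both a control and an injured library, the values could be set side by side. In the pool of the mixed control, Cd74 was 107 CPM in the control and 109 and 229 CPM on day 10, and H2-Ab1 was 27.0 CPM in the control and 41.9 and 53.5 CPM on day 10. In the pool of the resident control, Cd74 was 92.2 CPM in the control, 34.9 CPM on day 2 and 127 CPM on day 10, and H2-Ab1 was 19.4, 15.3 and 42.6 CPM. The directions were those of the pooled values. With the pool as a term Cd74 passed on day 10 against control (1.13, SE 0.27, adjusted p = 0.00849). On day 2 neither H2-DMa (-0.94, adjusted p = 0.0566) nor Cd74 passed, and on day 3 neither H2-Ab1 (1.43, adjusted p = 0.639) nor H2-DMa (-0.12, adjusted p = 0.965) passed.

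Counted over the 6 genes tested, 1 passed on day 1 (Cd74, higher), where 46.6% of all genes passed. On day 2, 2 passed, both lower (H2-DMa and Cd74), where 12.2% of all genes passed as lower and 29.7% in either direction. On day 3, 2 passed (H2-Ab1 higher, H2-DMa lower) against 37.6% of all genes, and on day 10 1 passed (H2-Ab1 higher) against 10.3%. On day 21, 4 passed as higher against 6.12% of all genes as higher and 6.98% in either direction, all in 1 library and with the spread of the other times. The median change of the 6 genes was -0.04, -0.62, 0.29, 1.20 and 2.72 at the 5 times, against -0.01, -0.02, -0.04, -0.01 and -0.08 over all genes. Taken in either direction, the counts of days 1 to 3 thus lay below or near the share called among all genes. Taken as lower, the 2 of 6 of day 2 lay above the 12.2% of all genes. The comparisons with control share the same 2 control libraries, so they are not independent of each other.

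Other genes of the pathway were also called in microglia, and their changes were not tested against those of the class II genes. Of 9 accessory genes tested, 2 were higher and 4 lower on day 1, 2 and 4 on day 2, 3 and 4 on day 3, 3 and 1 on day 10, and 2 and 0 on day 21, where 46.6%, 29.7%, 37.6%, 10.3% and 6.98% of all genes were called. March1, a ubiquitin ligase that removes class II from the surface, fell on each of the first 4 days sampled, with log2 changes of -2.37 on day 1 (adjusted p = 0.000227; edgeR), -2.19 on day 2, -3.04 on day 3 and -1.66 on day 10. H2-Ob, a chain of H2-DO, the inhibitor of H2-DM, fell on day 1 (-2.13, adjusted p = 0.000716), day 2 (-2.22) and day 3 (-1.17), and its partner H2-Oa on the same days (-1.82, -2.08 and -1.77). The lysosomal protease genes did not move as 1 group: Ctss, a protease of the invariant chain, fell on day 2 (-1.59, adjusted p = 0.00112) and day 3 (-0.79, adjusted p = 0.0316). Ctsl rose by 2.11 on day 1 (adjusted p = 6.2e-05), 1.05 on day 2, 1.36 on day 3 and 1.21 on day 10. Ctsb rose by 1.41, 1.43, 2.33, 2.05 and 2.48 on days 1, 2, 3, 10 and 21, and Ctsd by 1.83, 1.89 and 2.34 on days 3, 10 and 21. From day 3 to day 10, 4 accessory genes rose and none fell, namely H2-Oa (1.54), March1 (1.38), H2-Ob (1.20) and Ctss (1.16), where 6.88% of all genes were called. The median change of the list against control was -0.68, -1.22, -0.79, 0.03 and 0.16 on days 1, 2, 3, 10 and 21, where the medians over all genes were those given above.

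Of 14 regulators of class II tested, 8 were lower than control on day 1, 2 on day 2, 4 on day 3, 1 on day 10 and 0 on day 21, where 22.7%, 12.2%, 17.6%, 2.22% and 0.861% of all genes were lower, and none was called higher. Rfx5, which encodes a subunit of the RFX complex, fell on day 1 (-3.18, adjusted p = 9.98e-05; edgeR). Irf1, a transcription factor downstream of interferon, fell on day 1 (-2.25, adjusted p = 0.000157), day 2 (-1.35) and day 3 (-1.55). Ifngr1, a chain of the interferon-gamma receptor, fell on day 1 (-2.20, adjusted p = 2.72e-05), day 2 (-2.38), day 3 (-2.08) and day 10 (-1.02). Socs1, an inhibitor of cytokine signalling, fell on day 3 (-2.13). From day 1 to day 3, Rfx5 rose (2.13), and from day 3 to day 10 Ifngr1 did (1.06). The median change of the list against control was -1.20, -0.67, -0.55, -0.24 and -0.25 on days 1, 2, 3, 10 and 21.

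Of 7 co-stimulatory genes tested, 3 were lower on day 1 and none higher, where 22.7% of all genes were lower: Cd80 (-3.32, adjusted p = 0.000563; edgeR) and Icosl (-2.59), which encode ligands of T cell receptors for co-stimulation, and the adhesion gene Icam1 (-1.12). On day 2, 3 were lower and Cd40 was higher (2.93, adjusted p = 0.0313), on day 3, 3 were lower, on day 10 Icosl alone was lower (-1.47), and on day 21 none of the 7 passed. Of all genes 12.2%, 17.6% and 2.22% were lower on days 2, 3 and 10. The median change of the co-stimulatory genes was -0.60, -0.71, -0.97, 0.18 and 0.45 at the 5 times. Genes of MHC class I, which presents peptides made inside the cell, were counted in the same way: of 14 tested, 2 passed on day 1, where 46.6% of all genes passed, both higher (Psmb10, 0.96, and Psmb8, 0.93, subunits of the immunoproteasome). Psmb8 also rose on day 2 (0.72), when the peptide transporter gene Tap2 fell (-1.14), and on day 3 (1.10), day 10 (0.77) and day 21 (1.13). No other gene of the list was called at these 4 times, where 29.7%, 37.6%, 10.3% and 6.98% of all genes were called. The median change of the class I list lay between -0.01 and 0.52 at the 5 times.

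In macrophages no class II gene was called between times in the fit of 15 infiltrating and mixed libraries, and levels differed widely between libraries of the same day. H2-Aa stood at 977, 369, 76.3 and 51.1 CPM on day 1, at 725, 100 and 369 CPM on day 2, at 1514 and 83.1 CPM on day 3, at 299, 1303, 467 and 392 CPM on day 10 and at 961 and 218 CPM on day 21. Cd74 stood at 3744, 1717, 1165 and 462 CPM on day 1, at 3265, 447 and 1529 CPM on day 2, at 4842 and 452 CPM on day 3, at 1266, 4226, 1564 and 1293 CPM on day 10 and at 4692 and 1356 CPM on day 21. The times overlapped for both genes. On days 1, 2, 3 and 21 each infiltrating library was above each mixed library of its day for H2-Aa, and on day 10 the infiltrating libraries were the lowest and the highest of the 4.

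Over the 4 comparisons with day 1 and that of day 10 with day 3, 0 of 6 genes passed edgeR's quasi-likelihood test with Benjamini-Hochberg adjustment over 8577 genes, where 0.00% (day 2), 0.00% (day 3), 14.4% (day 10), 3.56% (day 21) and 0.676% (day 10 against day 3) of all genes passed. At an unadjusted p under 0.05 stood H2-DMa alone, on day 10 against day 1 (0.90, SE 0.38, adjusted p = 0.124) and on day 10 against day 3 (1.46, SE 0.48, adjusted p = 0.151). DESeq2 called 0 of 6 in the comparisons of days 2, 3, 10 and 21 with day 1, where it called 0.00%, 0.243%, 20.8% and 9.11% of all genes. It called H2-DMa between days 3 and 10 (1.51, adjusted p = 0.039), where it called 4.76%. H2-DMa stood at 115, 101, 157 and 43.8 CPM on day 1, at 89.7 and 52.4 CPM on day 3 and at 145, 240, 190 and 171 CPM on day 10, so days 3 and 10 did not overlap. The change of H2-Aa from day 1 to day 10 was 0.93 (SE 1.02, adjusted p = 0.578), and the median of the 6 genes was -0.09, 0.59, 0.86 and 0.79 on days 2, 3, 10 and 21 against day 1. These changes moved with single libraries, although none of the 6 genes passed without any 1 of the 15. From day 1 to day 10 that of H2-Aa ranged from 0.11 without the second infiltrating library of day 10 to 2.01 without the first infiltrating library of day 1. On day 3 the changes of H2-Aa (0.97), H2-Eb1 (1.13) and Cd74 (0.39) became -1.67, -1.68 and -1.56 without the infiltrating library of day 3. On day 21 those of H2-Aa (0.83) and H2-Eb1 (0.93) became -0.87 and -1.65 without the infiltrating library of day 21.

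Other values came from the mixed libraries alone. That fit held 2 libraries of day 1 (28 and 54 macrophages), 2 of day 2, 1 of day 3, 2 of day 10 and 1 of day 21, and the lone libraries were assumed to vary like the others. All were male except 1 of day 2 and that of day 21, so its sex term rests on the pair of day 2. From day 1 to day 10, between male libraries, H2-Aa rose by 2.94 (adjusted p = 0.000185), H2-Eb1 by 3.96 (adjusted p = 5.09e-05), H2-Ab1 by 1.84 (adjusted p = 0.00488) and H2-DMb1 by 1.79 (adjusted p = 0.0293; edgeR). Without the sex term H2-Aa (2.94, adjusted p = 0.0046), H2-Eb1 (3.96, adjusted p = 0.00409) and H2-DMb1 (1.79, adjusted p = 0.0354) passed and H2-Ab1 (adjusted p = 0.0564) did not. The change of H2-Aa on day 21 was 4.34 with the sex term (adjusted p = 0.00668) and 2.51 without it (adjusted p = 0.0423), and that on day 2 was 2.70 (adjusted p = 0.00838) and 2.12 (adjusted p = 0.0822).

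Counted over 6 genes in the mixed libraries alone, 2 passed on day 2, 1 on day 3, 4 on day 10 and 3 on day 21 against day 1, where 0.602%, 11.5%, 15.8% and 0.401% of all genes passed, and 3 passed from day 3 to day 10 against 14.2%. Without the sex term 0, 0, 3 and 1 passed against day 1, where 1.11%, 11.2%, 15.6% and 4.90% of all genes passed, and 1 from day 3 to day 10 (H2-Aa, 1.99, adjusted p = 0.0455; edgeR) against 13.6%. The 7 border macrophage markers summed to 1280 and 7509 CPM in the day 1 mixed libraries and to 553.2 and 582.4 CPM in those of day 10, and the part of such cells in the changes was not tested.

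Among infiltrating libraries alone, H2-Aa differed by -0.04 between days 10 and 1, and the only class II gene called was H2-DMa, higher on day 10 than on day 3 (1.62, adjusted p = 0.0452), where 4.31% of all genes passed. Against day 1 none of the 7 passed in these libraries, where 0.0814% (day 2), 0.154% (day 3), 16% (day 10) and 9.61% (day 21) of all genes passed. Whether the change over time differs between the sorts was not tested. The 7 border macrophage markers summed to 736 to 7509 CPM over the 4 day 1 sums of the fit of 15 libraries and to 229 to 582 CPM over those of day 10. The summed level of the 9 microglial markers in macrophage sums was 291 to 1396 CPM on day 1, 998 to 3345 CPM on day 10 and 2347 to 4761 CPM on day 21, and the 8 dendritic markers summed to 19.5 to 76.3 CPM on day 1 and 63.2 to 109 CPM on day 10 in the libraries of the fit. The part of such cells in the levels was not tested. Resident libraries also held macrophages, with H2-Aa at 799 CPM on day 2, 656 and 442 CPM on day 3 and 199 CPM on day 10.

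**Figure D5:**
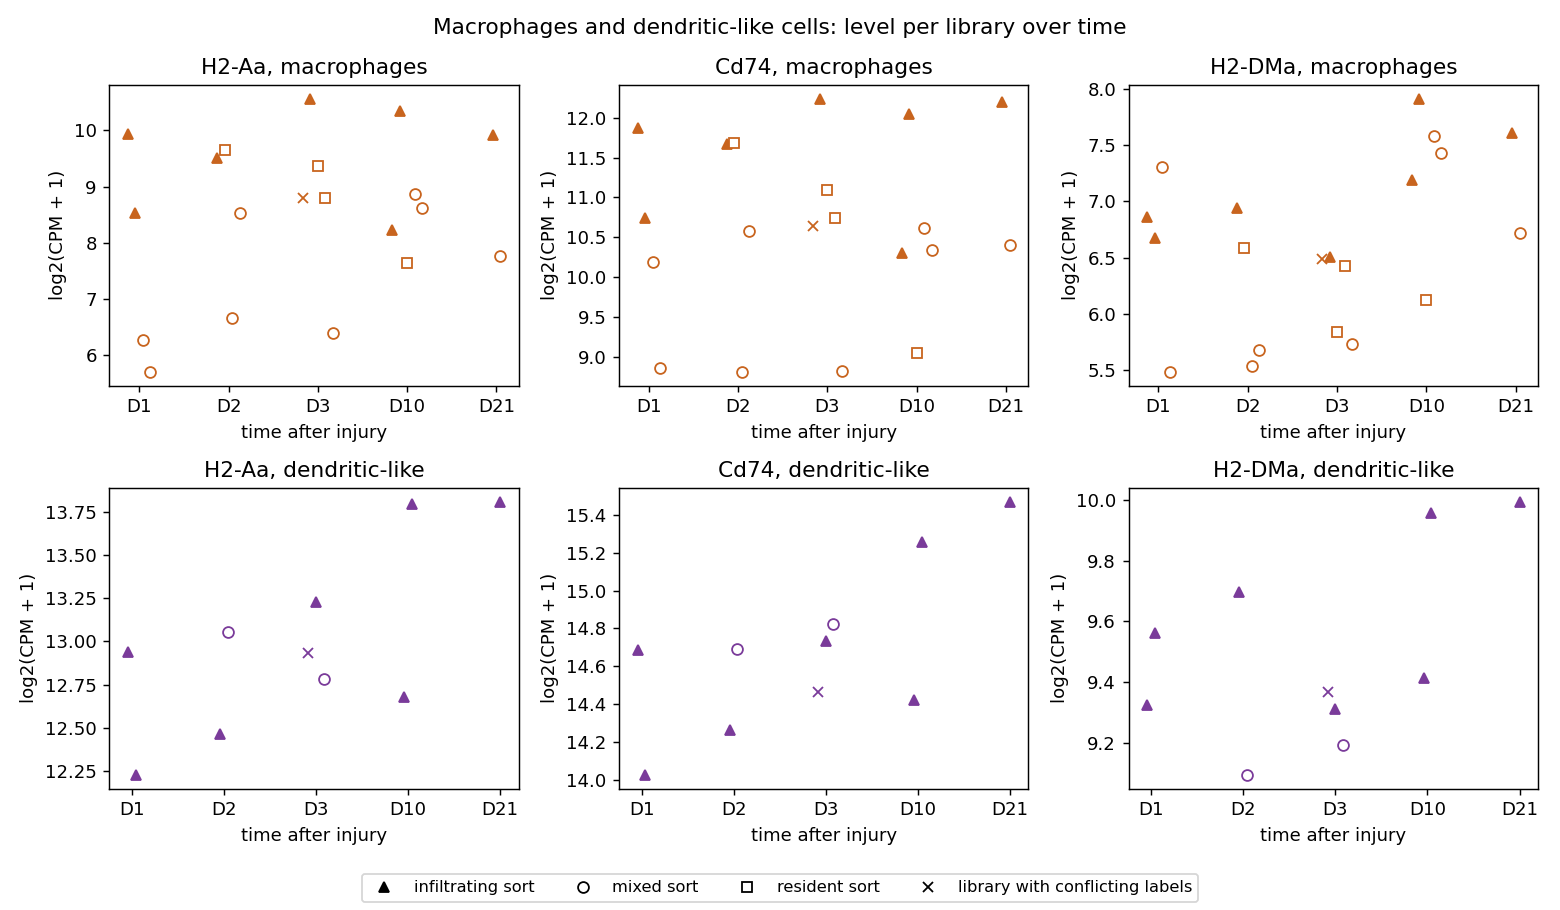
Level as log2(CPM + 1) (vertical axis) by time (horizontal axis) of H2-Aa, Cd74 and H2-DMa in macrophages (top row) and dendritic-like cells (bottom row), 1 point per sum of at least 20 cells, marker shape by sort and a cross for the library with conflicting labels. In macrophages H2-Aa spans 51.1 to 977 CPM on day 1 alone, while dendritic-like cells stay between 4796 and 14333 CPM over all times.

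Dendritic-like cells kept a high level from the first day. H2-Aa stood at 7857 and 4796 CPM on day 1, at 5663 and 8489 CPM on day 2, at 9581 and 7056 CPM on day 3, at 6549 and 14207 CPM on day 10 and at 14333 CPM on day 21. Cd74 stood at 26338 and 16679 CPM on day 1, at 19684 and 26412 CPM on day 2, at 27234 and 29007 CPM on day 3, at 21968 and 39174 CPM on day 10 and at 45383 CPM on day 21. The single day 21 library was the highest of the 9 for both genes. For H2-Aa the times from day 1 to day 10 overlapped.

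In the fit of these 9 infiltrating and mixed libraries, 0 of 7 genes, Ciita included, passed edgeR's quasi-likelihood test with Benjamini-Hochberg adjustment over 7114 genes in any of the 4 comparisons with day 1. None had an unadjusted p under 0.05, and DESeq2 called 0. Of all genes 0.00% passed on day 2, 0.0281% on day 3, 0.00% on day 10 and 0.00% on day 21. On day 10 the change of H2-Aa was 0.90 (SE 0.54, adjusted p = 0.625) and that of H2-Eb1 1.05 (adjusted p = 0.544). On day 21 H2-Aa changed by 1.21 (adjusted p = 0.862) and H2-Eb1 by 1.35 (adjusted p = 0.851), on 1 library assumed to vary like the others. Leaving out 1 library moved the change of day 10 between 0.12 and 1.80 for H2-Aa and between 0.32 and 1.86 for H2-Eb1, and that of H2-Aa on day 21 between 0.22 and 1.90, with the lowest value without the second and the highest without the first infiltrating library of day 1. In these sums the 8 dendritic markers summed to 298 to 434 CPM on day 1, 666 to 896 CPM on day 10 and 1003 CPM on day 21. The 6 plasmacytoid markers summed to 129 to 346, 43.8 to 69.9 and 329 CPM at these times. The 9 macrophage markers summed to 3531 to 6281, 5447 to 18550 and 2915 CPM, and the part of such cells in the changes was not tested.

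The late change (days 10 and 21 against days 1, 2 and 3) was also compared between macrophages and microglia of the same 14 libraries, with the library as a term. By edgeR 0 of 6 genes passed, where 10.7% of 9596 genes passed. At an unadjusted p under 0.05 stood Cd74, whose late change was lower in macrophages (-1.97, SE 0.78, adjusted p = 0.115), and H2-DMb1, whose late change was higher in macrophages (0.89, SE 0.35, adjusted p = 0.11). DESeq2 called Cd74 (-2.13, adjusted p = 0.0348), where it called 12.1% of all genes. For H2-Aa the difference was -0.94 (adjusted p = 0.589). The late microglia of this fit include 36 cells of an infiltrating library of day 10 and 41 of that of day 21, with H2-Aa at 95.1 and 1114 CPM and Cd74 at 321 and 5626 CPM, in which the 9 macrophage markers summed to 20030 and 14240 CPM. In resident and mixed libraries alone 0 of 7 genes passed, where 10.1% of all genes passed, with a difference of -0.06 for H2-Aa (adjusted p = 0.981), -1.69 for Cd74 (adjusted p = 0.174) and 0.68 for H2-DMb1 (adjusted p = 0.275).

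Outside the class II genes, macrophages of day 10 had less Ctsl than those of day 1 (-2.91, adjusted p = 0.012), less Socs1 (-2.75, adjusted p = 0.00597), less of the inhibitory ligand gene Cd274 (-2.61, adjusted p = 0.0154), less of the co-stimulatory gene Cd86 (-2.06, adjusted p = 0.0309) and less Calr (-0.98, adjusted p = 0.0473), and more Ifngr1 (1.00, adjusted p = 0.0455; edgeR). In that comparison 14.4% of all genes passed, and only called genes of the lists are named. Socs1 was also lower on day 10 than on day 3 (-2.74, adjusted p = 0.0498), where 0.676% of all genes passed. The late change differed between macrophages and microglia for the protease gene Ctsb (-1.26, adjusted p = 0.0489), for Cd274 (-1.70, adjusted p = 0.0249), for the class I heavy chain gene H2-D1 (-1.41, adjusted p = 0.0287) and for Tapbp (-1.01, adjusted p = 0.0492), in each case lower in macrophages. There 10.7% of all genes passed.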

How the data were processed

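The submitters aligned and counted reads with Cell Ranger 3.1.0 on GRCm38/mm10, per the submitters' processing notes, and the counts that the authors deposited are unscaled UMIs for each gene in each cell, beside a cell type code and a cluster number. Settings of the filter on cells and any removal of doublets are not given in the sources used here, and no doublet caller was run. Counts were summed per library and cell type (at least 20 cells), read as CPM, and tested with edgeR 4.0.16 (TMM, filterByExpr, quasi-likelihood, time and sex as terms) at an adjusted p of 0.05, in R 4.3.3. DESeq2 1.42.0, other scalings, no filter, 50 cells, sort, sequencing pool, replicate block, cluster 2 left out and each library left out were alternatives. Library-size scaling, the sort term, the fits without sex (also in mixed libraries alone), the infiltrating libraries alone, the resident and mixed libraries alone and the shares without the library with conflicting labels were chosen after the data were seen. The plan was to name all 7 genes in each comparison, of each other list the up to 3 called genes with the largest change, and the 8 genes most like the mean of the 7 by Pearson r (mean of at least 5 CPM). In some comparisons more or fewer genes of a list were named. The members and lists were chosen with earlier results of these data known. A marker passed at 20 CPM or more and at least a 2-fold level over the other types (5 CPM added). The scripts were tested on simulated data. H2-Ea-ps and Ifi30, of the accessory list, were not analysed here. Positions are from GENCODE.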

Additional observations from a re-analysis of the deposited data

Results flagged for a closer look

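In 21 groups of 4 or 5 libraries, the library farthest from the others was looked for, and chance marks about 1 in 20 such groups. On day 10 the second infiltrating library stood far above the other macrophage sums for Cd74 (4226 CPM), H2-Aa (1303 CPM), H2-Ab1 (1133 CPM) and H2-Eb1 (899.5 CPM), from 116 macrophages. For Ciita in microglia of day 3, the third mixed library (0.6287 CPM, 1 count) was the only one above 0.

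Cells coded as microglia in infiltrating libraries entered no test of microglia over time, and entered the comparison of late changes between macrophages and microglia. The 36 of the second infiltrating library of day 10 had 95.11 CPM of H2-Aa, 130.8 CPM of H2-Eb1 and 321 CPM of Cd74. The 41 of the infiltrating library of day 21 had 1114 CPM of H2-Aa, 561 CPM of H2-Ab1, 755.8 CPM of H2-Eb1 and 5626 CPM of Cd74. The highest control values of microglia were 6.473 CPM for H2-Aa, 26.98 CPM for H2-Ab1, 8.092 CPM for H2-Eb1 and 106.8 CPM for Cd74. The 9 macrophage markers summed to 20030 CPM in these cells on day 10 and 14240 CPM on day 21, against 1059 to 1238 CPM in control microglia, and their part was not tested.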

How the results depend on the processing

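Counts of class II genes called in microglia changed as follows. Day 1 against control (1 gene) gave 2 with median-of-ratios scaling, DESeq2, 50 cells or library-size scaling, 3 without a filter and 0 in mixed libraries. Day 2 (2 genes) gave 0 with the pool term and 3 with median-of-ratios scaling, no filter, DESeq2, the sort term, no sex term or library-size scaling. Day 3 (2 genes) gave 0 in mixed libraries, with the pool term or with the replicate block, 1 without cluster 2, and 3 without the sex term or with library-size scaling. Day 10 (1 gene) gave 0 in mixed libraries and 2 with the pool term. Day 21 (4 genes) gave 3 in mixed libraries or with library-size scaling. Day 3 against day 1 (1 gene) gave 2 without cluster 2, and day 10 against day 3 (1 gene) gave 0 with the pool term. In macrophages (0 genes), mixed libraries gave 2 on day 2, 1 on day 3, 4 on day 10, 3 on day 21 and 3 for day 10 against day 3 (without the sex term 0, 0, 3, 1 and 1), where DESeq2 and infiltrating libraries each gave 1. The difference between macrophages and microglia (0 genes) gave 1 with DESeq2 or without a filter. Leaving out 1 library gave 0 to 2 on day 1, 1 to 3 on day 2, 0 to 2 on day 3, 0 to 2 on day 10, 2 to 4 on day 21, 1 to 3 for day 3 against day 1, 0 to 1 for day 10 against day 3 and 0 to 1 for the difference, while macrophages and dendritic-like cells stayed at 0. Values that did not pass without any 1 library also took the other sign, among them H2-Aa in macrophages, at -1.67 to 1.88 on day 3, -0.87 to 2.07 on day 21 and -0.91 to 2.57 on day 10 against day 3. The cause was not tested.

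Among changes called in either fit, those that reversed were Cd74 from day 3 to day 10 with the pool term (-0.496) and, in macrophages of mixed libraries, H2-Aa on day 2 against day 1 (2.704) and H2-Aa (1.985), H2-Ab1 (1.776) and H2-Eb1 (2.078) on day 10 against day 3 (H2-Aa 1.985 also without the sex term). Shares of cells with a chain UMI at the deposited depth were 12.57% for microglia, 27.03% for macrophages, 89.12% for dendritic-like and 33.65% for neutrophil-like cells. The fall of Cd74 from day 1 to day 3 was kept in 17 of 17 fits without 1 library and in 10 of 10 alternatives. Without 1 of the other 16 libraries, the change on day 21 ranged from 2.87 to 3.78 for Cd74 and from 4.57 to 5.35 for H2-Aa. These fits all hold the single day 21 library, since no value can be had without it. Same-numbered mixed libraries correlated at -0.187 to 0.112 and those of differing number at -0.202 to 0.202. These values are few and depend on each other, so they cannot decide whether same-numbered libraries share mice or a batch. With the replicate block, H2-Ab1 on day 3 was 1.121 (adjusted p = 0.0524, edgeR) and H2-DMa -0.568 (adjusted p = 0.104), and no other call changed.

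The pool term could not be fitted for days 1 and 21 or for day 3 against day 1 in microglia, for day 10 in macrophages or in dendritic-like cells. Dendritic-like cells allowed no fit of mixed libraries, none of days 10 and 21 with 50 cells and no block for days 3 and 21. The library with conflicting labels held fewer than 20 microglia. Day 21 rests on 1 library, day 2 on a sum of 23 microglia among others, and sums of 135097 UMIs place 3 counts of a gene at 22.21 CPM, near the control mean of H2-Ab1 (23.2 CPM) and above those of H2-Aa (4.84 CPM) and H2-Eb1 (4.67 CPM).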
